A study of Mus musculus with 8 samples.

Results

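The 9 genes described here encode secreted signals that myotubes, the multinucleated muscle cells formed in culture, can release: the chemokines Ccl2, Ccl7, Cxcl1, Cxcl5, Cxcl12 and Cx3cl1, the macrophage growth factor Csf1, and the cytokines Lif and Il6. They were taken by symbol from the 35275 genes of the expression table, and all 9 were found. They had been picked because of how their difference between treatments looked at 12 h and at 24 h in these same libraries, so those differences are given as a description and without a test. The myotubes were differentiated with horse serum from primary progenitors of muscle, myogenic progenitor cells (MPCs), isolated from C57BL6/J mice. In the MPC EV groups they received extracellular vesicles (EVs) isolated from proliferating primary MPCs. Control myotubes received EVs isolated from growth medium in place of MPC EVs. RNA was taken after 12 h and after 24 h, with 2 libraries for MPC EVs and 2 for control EVs at each time, 8 libraries in all. No untreated myotubes were among the samples, so a lower level with MPC EVs cannot be told apart from a higher level with the control preparation.

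Chemokines are small secreted proteins that draw leukocytes along a gradient by binding receptors on those cells. CCL2 and CCL7 act on monocytes mainly through CCR2, CXCL1 and CXCL5 on neutrophils through CXCR2, CX3CL1 through CX3CR1 and CXCL12 through CXCR4. LIF and IL-6 signal through receptors that share the subunit gp130 (Il6st) and activate STAT3. After muscle injury such signals are known to bring in monocytes and macrophages, and muscle fibres are known to release LIF and IL-6. Many of these genes are transcribed through NF-kappaB and AP-1 factors.

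Values are FPKM, fragments per kilobase of gene length and per M fragments of the library (M for mega). Library totals, which could be read back from the values, lay between 16.3 and 20.2 M fragments, so the fragments behind each value are known. Both libraries of a group correlated at 0.992 to 0.996 across the 10981 genes whose mean reached 1 FPKM, except for the control 12 h libraries at 0.947. That correlation does not tell which of the pair departs, so the members' values at 12 h are also given without either of them. Of 14 markers of differentiated muscle 13 averaged 1 FPKM or more, between Ttn at 3.66 to 30.2 FPKM and Acta1 at 5127 to 7898 FPKM, with Myog at 1851 to 3290 FPKM, and Tnnc2 stayed at no more than 0.159 FPKM. All 17 leukocyte markers stayed below 2 FPKM in every library, with Ptprc at no more than 0.0334 FPKM and Adgre1 at no more than 0.0165 FPKM, and so did all 6 endothelial markers. The label of the cells as myotubes is thus matched by most of these markers, while RNA of a bulk culture does not tell which of its cells carried a transcript, and fewer cells of a type and less RNA per cell cannot be told apart.

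Csf1, the growth factor that keeps macrophages alive, was by far the most abundant of the 9 transcripts, with a mean of 81.1 FPKM over the 8 libraries and a range of 67.1 to 100.7 FPKM that no other member reached. Cxcl12, the CXCR4 ligand, followed with a mean of 11.4 FPKM (10.1 to 13.4) and Cx3cl1, a chemokine anchored in the membrane until it is shed, with 8.39 FPKM (5.74 to 12.8); their ranges overlapped. Lif averaged 4.67 FPKM (3.15 to 8.68), Ccl2 4.55 FPKM (1.84 to 9.35) and Ccl7 3.69 FPKM (1.15 to 6.60), and these 3 could not be ordered either. The neutrophil chemokine Cxcl1 averaged 0.820 FPKM, Il6 0.192 FPKM and the other neutrophil chemokine, Cxcl5, 0.0155 FPKM. These last 3 fell below the mean of 1 FPKM that was required for a test, and 6 of 9 members were tested where a test was made.

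On the genome (GRCm38, GENCODE vM21), Ccl2 (ENSMUSG00000035385) occupies chr11:82035571-82037453 and Ccl7 (ENSMUSG00000035373) chr11:82045712-82047525, both on the plus strand, 8.26 kb apart with no gene between them. A predicted gene on the minus strand, Gm17268, overlaps Ccl2; it is listed at 0 in all libraries, and since the libraries kept no strand, reads of the pair could not be separated. Cxcl5 (ENSMUSG00000029371, chr5:90759360-90761624) and Cxcl1 (ENSMUSG00000029380, chr5:90891241-90893115) lie 129.6 kb apart in another chemokine cluster, with Ppbp, Pf4, Cxcl15 and Cxcl3 among the 7 genes between them. The other members are scattered: Lif (ENSMUSG00000034394) at chr11:4257557-4272514, Il6 (ENSMUSG00000025746) at chr5:30013114-30019981, Cxcl12 (ENSMUSG00000061353) at chr6:117168535-117181367, Cx3cl1 (ENSMUSG00000031778) at chr8:94772009-94782427 and Csf1 (ENSMUSG00000014599), alone on the minus strand, at chr3:107741048-107760469.

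RefSeq (GRCm38.p6) promoter entries were found for 6 of the 9 members, and Ccl2, Ccl7 and Cxcl5 had none. The 250 bases upstream of each start were searched on both strands for a kappaB motif written as GGGNNNTTCC, which 4.65% of 32851 promoters hold, and for an AP-1 motif written as TGANTCA, which 6.75% hold. A kappaB match was found in Cxcl1, Csf1 and Il6, 3 of the 6 promoters. AP-1 matches were found in Lif and Il6, and neither motif in Cxcl12 or Cx3cl1. The Cxcl1 promoter held 3 matches, at 89 to 80, 71 to 62 and 70 to 61 bases before the start, the last 2 overlapping on opposite strands. The Csf1 kappaB match lies 154 to 145 bases and the Il6 kappaB match 44 to 35 bases before the start. The Lif AP-1 match lies 228 to 222 bases and the Il6 AP-1 match 249 to 243 bases before it. The 4 stretches that hold these matches, except for the Il6 AP-1 match, are shown because the transcript levels of NF-kappaB and AP-1 genes are described further on. The Il6 AP-1 match lies upstream of the Il6 stretch shown. Each has 100 bases, 5′ to 3′ on the gene's strand, with kappaB or AP-1 matches in capitals; they lie at chr5:90891129-90891228 (plus strand), chr3:107760569-107760668 (minus strand), chr11:4257318-4257417 (plus strand) and chr5:30013014-30013113 (plus strand). A match of letters is not a bound site.
Cxcl1: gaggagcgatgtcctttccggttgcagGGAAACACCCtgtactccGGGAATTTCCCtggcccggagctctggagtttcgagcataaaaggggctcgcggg
Csf1: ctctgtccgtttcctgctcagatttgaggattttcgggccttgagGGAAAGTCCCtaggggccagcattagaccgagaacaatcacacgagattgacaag
Lif: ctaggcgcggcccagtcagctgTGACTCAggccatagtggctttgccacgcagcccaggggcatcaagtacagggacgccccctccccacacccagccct
Il6: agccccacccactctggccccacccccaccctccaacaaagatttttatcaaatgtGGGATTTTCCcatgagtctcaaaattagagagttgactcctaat

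The monocyte chemokines had the widest gap between treatments at 12 h. Ccl2 stood at 1.84 and 2.19 FPKM in the MPC EV 12 h libraries, against 9.35 and 7.40 FPKM in the control 12 h libraries, from 35 and 44 fragments against 192 and 161. Both MPC EV libraries were below both control libraries. The control mean was 4.15 times the MPC EV mean, and on the scale of log2(FPKM + 0.5), which is used for all differences below, MPC EV minus control was -1.81 ± 0.27 (SE from the spread pooled over the 4 groups). At 24 h Ccl2 stood at 4.53 and 4.57 FPKM with MPC EVs and at 4.12 and 2.40 FPKM in controls, so both MPC EV libraries were now the higher ones, with a difference of 0.46 ± 0.27. That difference depends on 1 library, being 0.13 without control 24 h replicate 2 and 0.80 without control 24 h replicate 1.

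Ccl7, the neighbour of Ccl2 and a ligand of the same receptor, stood at 1.15 and 2.11 FPKM with MPC EVs at 12 h, against 6.13 and 6.60 FPKM in controls. The difference was -1.72 ± 0.25, close to that of Ccl2. At 24 h it stood at 3.21 and 3.05 FPKM with MPC EVs and at 3.99 and 3.28 FPKM in controls. Here the MPC EV libraries were still the lower ones, unlike Ccl2, with a difference of -0.18 ± 0.25 that was smaller than its SE. Fragments of Ccl7 numbered between 16 and 105 per library, which puts the counting error of the lowest value at 25.0%.

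Lif, the cytokine of the IL-6 family, stood at 3.21 and 3.70 FPKM with MPC EVs at 12 h and at 7.36 and 8.68 FPKM in controls, again with no overlap. Controls were 2.32 times as high on average, and the difference was -1.11 ± 0.18. At 24 h the values were 4.20 and 3.15 FPKM with MPC EVs and 3.77 and 3.26 FPKM in controls. The groups overlapped there, and the difference of 0.05 ± 0.18 turned to -0.14 without MPC EV 24 h replicate 1. Il6, its relative, was near the detection limit, with 3 and 7 fragments in the MPC EV libraries against 2 and 4 in controls at 12 h, and 1 and 8 against 2 and 4 at 24 h. A difference in Il6 was not detectable at this depth.

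Cx3cl1 stood at 7.04 and 8.48 FPKM in MPC EV 12 h libraries and at 11.5 and 12.8 FPKM in control 12 h libraries, a difference of -0.62 ± 0.15. At 24 h it stood at 7.66 and 6.85 FPKM with MPC EVs and at 6.96 and 5.74 FPKM in controls, which overlapped, with a difference of 0.18 ± 0.15. Csf1, at a level about an order of magnitude higher, was also lower with MPC EVs at 12 h. It stood at 67.1 and 79.0 FPKM with MPC EVs against 88.3 and 100.7 FPKM in controls at 12 h, a difference of -0.37 ± 0.12. At 24 h it stood at 80.2 and 85.0 FPKM with MPC EVs against 76.8 and 71.6 FPKM in controls, a difference of 0.15 ± 0.12 with both MPC EV libraries above both controls. With 4851 to 8346 fragments per library, counting error was at most 1.44% for Csf1, so its spread is that between libraries.

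Cxcl12 was the exception among the 6 abundant members at 12 h. It stood at 10.4 and 11.1 FPKM with MPC EVs and at 10.9 and 11.9 FPKM in controls, so the groups overlapped, and the difference of -0.08 ± 0.06 became 0.04 when libraries were scaled by median ratios. At 24 h the MPC EV libraries were both higher, at 13.0 and 13.4 FPKM against 10.6 and 10.1 FPKM, with a difference of 0.34 ± 0.06. Cxcl12 is produced by stromal cells of many tissues, and its receptor Cxcr4 was measured in these cultures too.

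**Figure D1:**
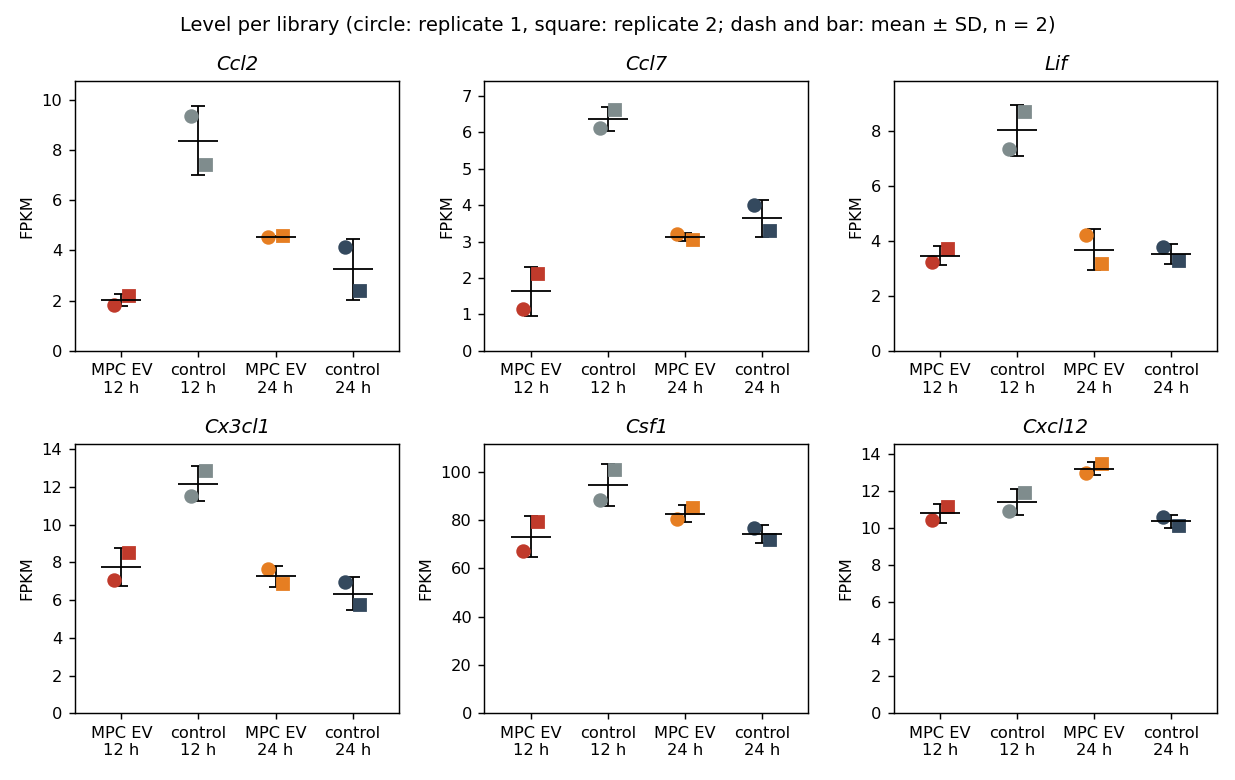
FPKM of the 6 abundant members in each library, by treatment and time, with each y axis starting at 0 and its own scale; circles are replicate 1, squares replicate 2, dashes and bars the mean ± SD (n = 2). Control 12 h libraries are the highest for Ccl2, Ccl7, Lif, Cx3cl1 and Csf1, and MPC EV 24 h libraries for Cxcl12.

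The neutrophil chemokines were scarce. Cxcl1 had 9 and 5 fragments with MPC EVs at 12 h and 18 and 14 in controls, and 36 and 14 with MPC EVs at 24 h against 13 and 3 in controls. Summed over the libraries of a group and set relative to depth, MPC EV over control came to 0.473 at 12 h (95% interval 0.233 to 0.913) and to 3.63 at 24 h (2.04 to 6.84). These intervals cover counting error only, and at 24 h replicate 1 of the MPC EV group held most of the fragments. At 24 h the nearest libraries of the 2 groups held 14 and 13 fragments, which their counting intervals do not separate. Cxcl5 had no fragment in any MPC EV library, against 1 and 0 in controls at 12 h and 3 and 0 at 24 h, so its level was not measurable in either treatment.

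**Figure D2:**
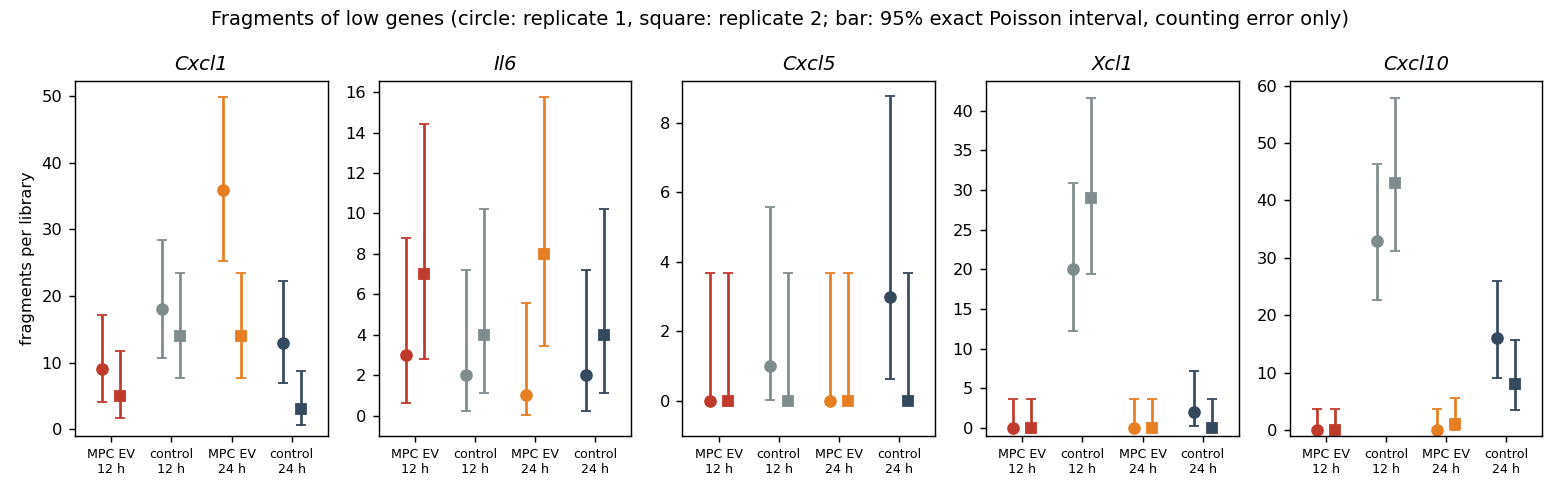
Fragments per library of the scarce members Cxcl1, Il6 and Cxcl5 and of the non-members Xcl1 and Cxcl10, by treatment and time; bars are exact 95% Poisson intervals, which cover counting error only. Cxcl1 reaches 36 fragments in MPC EV 24 h replicate 1, and Xcl1 and Cxcl10 are at 0 in both MPC EV 12 h libraries.

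Set side by side, MPC EV libraries were all below control libraries at 12 h for 6 of the 9 members (Ccl2, Ccl7, Cxcl1, Cx3cl1, Csf1 and Lif), 5 of them among the 6 tested genes. Of all 10981 genes, 45.0% showed such a separation downward at 12 h and 17.1% upward. At 24 h MPC EV libraries were all above controls for Ccl2, Cxcl1, Cxcl12 and Csf1, where 23.7% of all genes did so, and all below for Ccl7, where 30.2% did. Ccl2, Cxcl1 and Csf1 combined a separation downward at 12 h with one upward at 24 h, a combination found in 6.79% of all genes. Over the 6 abundant members the median difference was -0.86 at 12 h and 0.17 at 24 h, beside -0.12 and -0.03 over all genes. The all-gene median at 12 h moved to -0.0033 with median-ratio scaling. Relative to the median gene the 12 h differences in the FPKM as deposited were -1.70 for Ccl2, -1.61 for Ccl7, -0.99 for Lif, -0.51 for Cx3cl1, -0.26 for Csf1 and 0.04 for Cxcl12. Without control 12 h replicate 2 the differences as deposited were -1.97 for Ccl2, -1.67 for Ccl7, -0.99 for Lif, -0.55 for Cx3cl1 and -0.28 for Csf1. Without control 12 h replicate 1 they were -1.65 for Ccl2, -1.77 for Ccl7, -1.22 for Lif, -0.69 for Cx3cl1 and -0.47 for Csf1. Because the members were chosen on these contrasts, the shares are shown as the background and nothing is read from them. No gene of the 10981 (0.00%) passed limma's test of the difference between the effects at 24 h and 12 h, while 2014 had an unadjusted p under 0.05, and voom on the recovered fragments also called 0, with 2016.

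**Figure D3:**
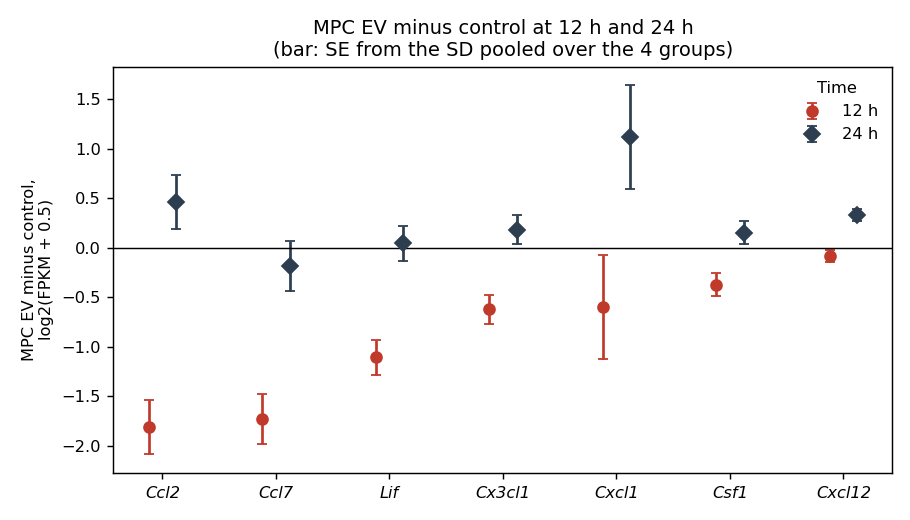
MPC EV minus control in log2(FPKM + 0.5) at 12 h (circles) and 24 h (diamonds) for 7 members; bars are the SE from the SD pooled over the 4 groups. All 12 h points lie below 0, from -1.81 for Ccl2 to -0.08 for Cxcl12, and all 24 h points lie above their 12 h points.

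The course over time was also followed within each treatment. With MPC EVs the 24 h libraries were all above the 12 h libraries for Cxcl1 (1.09), Ccl2 (1.01), Ccl7 (0.81), Cxcl12 (0.28) and Csf1 (0.18), beside 47.1% of all genes. Cx3cl1 and Lif were nearly level with MPC EVs, at -0.09 and 0.07 with overlapping libraries. In controls the 24 h libraries were all below the 12 h libraries for 7 members, Ccl2 (-1.27), Lif (-1.08), Cx3cl1 (-0.89), Ccl7 (-0.74), Cxcl1 (-0.63), Csf1 (-0.34) and Cxcl12 (-0.13), each as 24 h minus 12 h, beside 30.9% of all genes. For Lif and Cx3cl1 the control 12 h group therefore stood alone, and for Ccl2 and Ccl7 the MPC EV 12 h group was low as well. These values rest on the same libraries as the differences between treatments and were not tested.

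Time averaged over both treatments was tested with limma across all 10981 genes. Its weights are orthogonal to the differences on which the members were picked. However, the average and those differences come from the same libraries, share the control 12 h group and use the same estimate of spread. The p-values of the average are therefore not assured to be independent of the choice of members. This average fell for Lif and Cx3cl1 and did not pass for the other 4 members. In both genes it was the control libraries that fell, while those with MPC EVs overlapped between the times, so the average does not describe each treatment. Lif averaged 3.59 ± 0.485 FPKM at 24 h and 5.74 ± 2.70 FPKM at 12 h (SD over 4 libraries of both treatments), a change of -0.51 ± 0.11 with an adjusted p of 0.0205 from limma. Cx3cl1 averaged 6.80 ± 0.791 FPKM at 24 h and 9.97 ± 2.67 FPKM at 12 h, a change of -0.49 ± 0.10 with an adjusted p of 0.0125 from limma. Calls in 2 of 6 members, both lower, compare with 28.0% of all genes called in either direction and 11.4% called lower. The share is near that of all genes called in either direction and above that of genes called lower. With 6 members tested, nothing is read from this. The other changes from limma were -0.13 ± 0.16 for Ccl2 (adjusted p = 0.603), 0.03 ± 0.16 for Ccl7 (0.888), 0.07 ± 0.06 for Cxcl12 (0.379) and -0.08 ± 0.07 for Csf1 (0.460). A p that misses the threshold does not show that these levels stayed the same. That of Ccl2 became 0.04 without control 24 h replicate 2. The change of Ccl7 became -0.0036 with median-ratio scaling and -0.01 with quantile normalization.

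Both calls were fragile. The adjusted p of Cx3cl1 from limma was 0.0533 without MPC EV 24 h replicate 2 and 0.0501 without control 24 h replicate 2, within a range of 0.00344 to 0.0848 over the alternatives. That of Lif was 0.0732 without MPC EV 12 h replicate 2, 0.0611 without MPC EV 24 h replicate 2, 0.0526 without control 24 h replicate 1 and 0.0815 without control 24 h replicate 2, within a range of 0.00569 to 0.177. Whether replicate libraries were made from separate cultures is not stated in the labels, and p-values here cover library-to-library spread that could be technical.

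**Figure D4:**
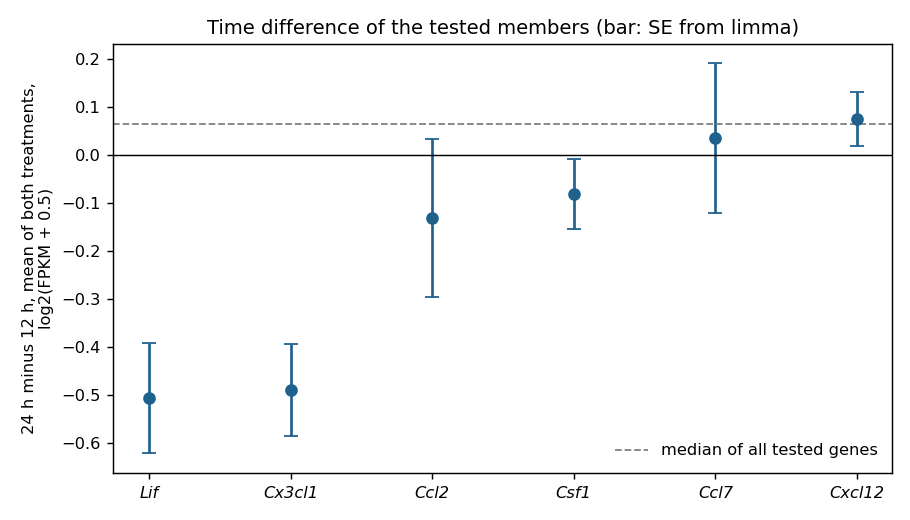
Change from 12 h to 24 h averaged over both treatments, in log2(FPKM + 0.5), for the 6 tested members; bars are the SE from limma and the dashed line is the median of all tested genes. Lif (-0.51) and Cx3cl1 (-0.49) lie apart from the other 4, which range from -0.13 to 0.07.

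Receptors for these ligands were mostly scarce in the same cultures. Il6st, the gp130 subunit, was the abundant one at 27.7 to 38.4 FPKM, while its partners Lifr and Il6ra lay at 0.341 to 0.554 FPKM and 0.400 to 0.482 FPKM. Ccr2, the receptor for CCL2 and CCL7, was at no more than 0.0431 FPKM, Csf1r at no more than 0.0737 FPKM and Cx3cr1 at no more than 0.177 FPKM, and Cxcr2 is listed at 0 in all libraries. Of 22 receptors of these ligands and of related cytokines 7 were tested. At 12 h 5 of them fell with MPC EVs, where limma called 18.6% of all genes in either direction, 14.3% lower and 4.36% higher. The 5 were Cxcr4 and, from receptors of related cytokines rather than of members, Il11ra1, Il1r1, Tnfrsf1a and Tnfrsf1b. Among these, Cxcr4, the CXCL12 receptor, stood at 2.76 ± 0.240 FPKM with MPC EVs and at 4.18 ± 0.0116 FPKM in controls (SD, n = 2 each), a difference of -0.52 ± 0.12 with an adjusted p of 0.0328 from limma. That call held without control 12 h replicate 1 and was lost without any of the other 7 libraries, with adjusted p between 0.0227 and 0.164 over the alternatives. At 24 h Il1r1, the interleukin 1 receptor, fell by 1.23 on the log2 scale with an adjusted p of 0.00855 from limma, and no other receptor passed, where 3.57% of all genes were called, 0.956% lower and 2.61% higher. Cxcr4 missed the threshold at 24 h with a difference of -0.59 ± 0.12 (adjusted p of 0.0546 from limma). It stood at 2.67 ± 0.319 FPKM with MPC EVs and at 4.26 ± 0.262 FPKM in controls, so its difference was not confined to 12 h. The 12 h count ranged from 0 to 5 when 1 library was left out, being 2 without control 12 h replicate 2 and 0 without MPC EV 12 h replicate 1, MPC EV 12 h replicate 2 or any 24 h library, and it was 1 with median-ratio scaling. The 24 h count was 0 without MPC EV 24 h replicate 1, control 24 h replicate 1 or control 24 h replicate 2.

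Of 29 genes that control cytokine transcription and mRNA decay 28 were tested, and with MPC EVs at 12 h 13 fell, none rose and 15 did not pass, with a median of -0.34 over the list beside -0.12 over all genes. Over all genes limma called 14.3% lower and 4.36% higher at 12 h. Nfkbie and Nfkbia, NF-kappaB inhibitors that are themselves NF-kappaB targets, stood at 3.67 ± 0.375 FPKM and 8.51 ± 1.32 FPKM with MPC EVs and at 20.5 ± 1.22 FPKM and 33.1 ± 1.32 FPKM in controls (SD, n = 2 each). Their differences were -2.33 ± 0.12 and -1.91 ± 0.12, with adjusted p of 0.00177 and 0.00244 from limma. Bcl3, an atypical inhibitor family member, fell by 2.55, Junb, an AP-1 subunit, by 1.51, Nfkb2, an NF-kappaB precursor, by 1.24 and Relb, its partner, by 0.81 on the log2 scale (adjusted p of 0.00289, 0.00372, 0.00241 and 0.00778 from limma). At 24 h 4 of the 28 fell and 1 rose: Nfkbie (-0.79), Junb (-0.70), Nfkbia (-0.63) and Nfkb2 (-0.57) were lower, and Fosl1, an AP-1 subunit, was higher by 0.95 with an adjusted p of 0.00884 from limma. Over all genes 0.956% were called lower and 2.61% higher at 24 h. None of the 28 passed the test of the difference between 24 h and 12 h, but neither did any of the 10981 genes. This outcome therefore says nothing particular about the list, and it does not show that the effects at 12 h and 24 h were alike. The 12 h count of 13 was 12 without control 12 h replicate 2, 5 and 7 without MPC EV 12 h replicate 1 and replicate 2, 17 without control 12 h replicate 1, and 1 in a fit to the 12 h libraries alone; the 24 h count of lower genes was 0 without any of the 24 h libraries, and Fosl1 was not called without MPC EV 24 h replicate 1, MPC EV 24 h replicate 2 or control 24 h replicate 2.

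Downstream of LIF and IL-6, 10 of 13 STAT3 pathway genes were tested. At 12 h 2 fell, Tyk2, a kinase of these receptors, by 0.56 and Socs2, a feedback inhibitor, by 0.50 on the log2 scale (adjusted p of 0.0177 and 0.0399 from limma), a share near the 14.3% of all genes called lower, and the list's median was -0.17 beside -0.12 over all genes. The count was 0 without MPC EV 12 h replicate 1, MPC EV 12 h replicate 2 or either control 24 h library, 1 without either MPC EV 24 h library, 3 without control 12 h replicate 1, 0 in the 12 h libraries alone and 1 with median-ratio scaling. At 24 h limma called none of them, with a median of -0.02 beside -0.03. Other cytokines of these families gave a like count, with 2 of 7 tested genes lower at 12 h and none called at 24 h. All genes again gave 14.3% lower at 12 h, and this count was 0 without MPC EV 12 h replicate 1, 1 without MPC EV 12 h replicate 2 or any 24 h library, 3 without control 12 h replicate 1, 0 in the 12 h libraries alone and 1 with median-ratio scaling. Mif, an inhibitor of macrophage migration, fell by 0.42 on the log2 scale, with an adjusted p of 0.0237 from limma. That call was lost with median-ratio scaling and without any library other than the control 12 h pair, with adjusted p of up to 0.169 over the alternatives.

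Of the 29 other chemokine ligands 24 stayed below 1 FPKM in every library, 5 of these at 0 (Ccl3, Ccl4, Ccl19, Cxcl11 and Cxcl15), and 3 were tested, none of which limma called at 12 h or 24 h. Xcl1 and Cxcl10, chosen after their values were seen and below the filter of that test, had 0 fragments in both MPC EV 12 h libraries. Controls at 12 h held 20 and 29 fragments of Xcl1, a lymphocyte attractant, and 33 and 43 of Cxcl10, an interferon-induced chemokine. With a floor of 3 fragments put in for the MPC EV group, Xcl1 was 15.1-fold and Cxcl10 23.4-fold lower at 12 h, relative to depth. These folds leave out counting error and are not lower bounds. The 95% upper limit for 0 fragments is 3.69, and the control sums of 49 and 76 have lower limits of 36.3 and 59.9. At 24 h Xcl1 had 0 fragments with MPC EVs and 2 in controls, and Cxcl10 1 and 24, a ratio of 0.0485 relative to depth (95% counting interval 0.00118 to 0.297). Both would pass a lower filter through the control libraries, so no test is given for them. Unlike Ccl2 and Cxcl1, neither was higher with MPC EVs at 24 h.

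The members resembled each other to different degrees. Likeness was measured as the root mean square difference of log2(FPKM + 0.5), centred on each gene's mean, over the 8 libraries. Lower values mean a smaller distance. The distance is not scaled to how much a gene varies, so genes that vary little come out close whatever their shape. It was smallest for Cxcl12 and Csf1 at 0.151, followed by Cx3cl1 and Lif at 0.189, Cx3cl1 and Csf1 at 0.234 and Ccl2 and Ccl7 at 0.310. Cxcl12 and Csf1 still differed in course. Cxcl12 was highest with MPC EVs at 24 h and Csf1 in controls at 12 h. Among 9628 other genes the 5 nearest to Lif were Bhlhe40 (0.108), Rnf19b (0.117), Nkain1 (0.124), Bcar3 (0.144) and Dusp9 (0.159), beside a median of 0.494. Rnf19b, for example, averaged 24.5 FPKM with MPC EVs and 54.2 FPKM in controls at 12 h, and 24.0 and 27.6 FPKM at 24 h. The nearest to Ccl2 were Cdc42ep5 (0.346), Bcar3 (0.363), Bhlhe40 (0.377), Rab26os (0.380) and Tcf19 (0.381), beside a median of 0.682. Ccl2 had fewer fragments than Lif, 35 to 192 against 224 to 694 per library. Its SD pooled over the groups was larger, at 0.27 against 0.18. The distances of Ccl2 and Lif are therefore not directly comparable, and the part of counting error in them was not tested. Bhlhe40, a transcription factor of the circadian system, and Bcar3 were on both lists.

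**Figure D5:**
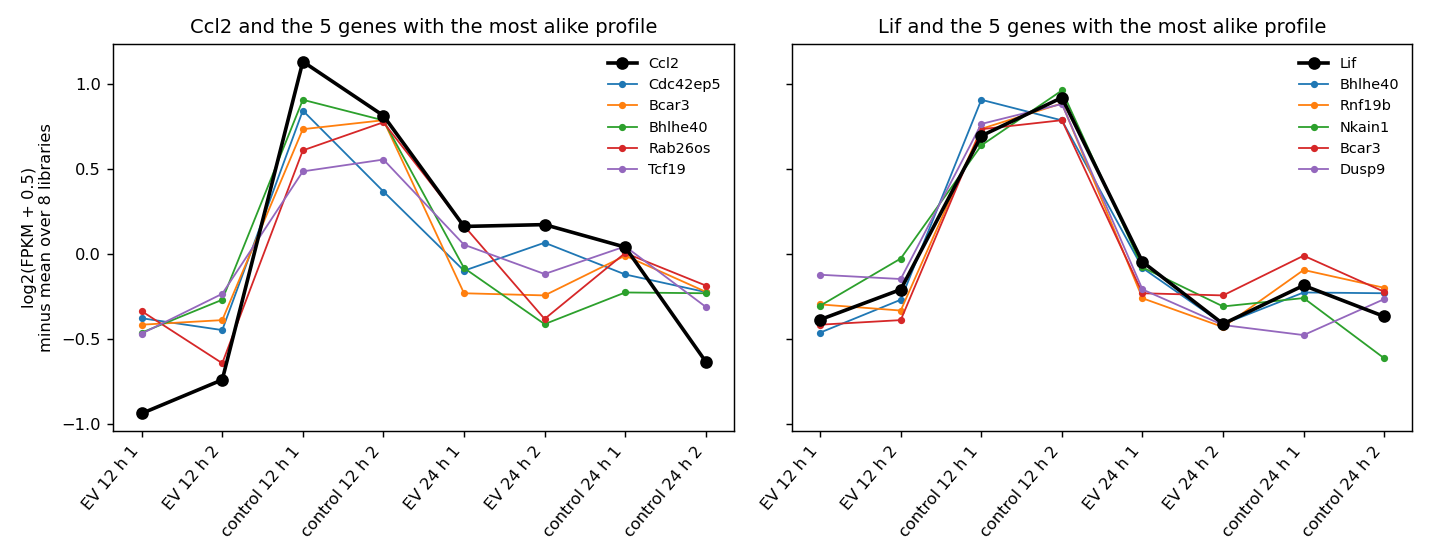
Log2(FPKM + 0.5) minus each gene's mean, by library, for Ccl2 and Lif (black) and the 5 genes with the most alike profile (colours). Lines join libraries for reading only; Lif and its 5 genes peak in both control 12 h libraries, and the genes beside Ccl2 lie farther from it (0.346 to 0.381) than those beside Lif (0.108 to 0.159).

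Markers of other cells were compared with the members' pattern. Summed leukocyte markers lay at 4.11 to 4.93 FPKM with MPC EVs and 3.23 to 5.01 FPKM in controls at 12 h, and at 3.44 to 5.72 and 3.24 to 4.56 FPKM at 24 h, overlapping at both times. The 10 fibroblast markers, led by Col3a1, summed to 31.5 to 34.7 FPKM with MPC EVs and 40.3 to 44.0 FPKM in controls at 12 h, and to 41.6 to 45.3 and 44.4 to 46.5 FPKM at 24 h. The 8 progenitor markers summed to 382.3 to 399.3 FPKM with MPC EVs and 406.8 to 435.9 FPKM in controls at 12 h, and to 308.1 to 330.1 and 288.0 to 290.0 FPKM at 24 h. That sum was led by Itga7 at 179.3 to 270.4 FPKM, while Pax7 lay at 4.29 to 7.56 and Myf5 at 5.39 to 15.05 FPKM. Chrdl2 is listed at 0. Both sums were lower with MPC EVs at 12 h, and the progenitor sum was higher with them at 24 h, as were Ccl2, Cxcl1, Cxcl12 and Csf1. Of all 10981 tested genes, 45.0% were separated downward at 12 h and 23.7% upward at 24 h. Of the 6 progenitor markers tested, limma called Cd82 and Vcam1 lower at 12 h and only Sdc4 higher at 24 h. Of the 4 fibroblast markers tested, it called only Col1a1 lower at 12 h and only Cd34 higher at 24 h. The sums therefore do not describe each marker. The 14 myotube markers summed to 15336 to 15841 FPKM with MPC EVs and 13722 to 15728 FPKM in controls at 12 h, and to 12394 to 13638 and 9862 to 10198 FPKM at 24 h. Of the 13 tested, limma called 5 higher with MPC EVs at 12 h (Ttn 1.99, Actn2 1.64, Myh7 1.62 and Myh8 1.42, beside Myh3) and Mymx lower (-1.17), and at 24 h it called 6 higher and Mymx lower. All genes gave 4.36% higher and 14.3% lower at 12 h, and 2.61% higher and 0.956% lower at 24 h. The part of fibroblast, progenitor and myotube RNA in the members' values was not tested.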

How the data were processed

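Mouse myotubes were profiled with RNA-seq, 8 libraries in 4 groups of 2. The authors deposited 1 table of FPKM values; the submitters' processing notes name HISAT2, DESeq2 (version given as 2) and mm10, with no role stated. Which tool counted fragments, which annotation was used and whether genes were filtered is not given in the sources used here. Per the labels' protocols, libraries were not strand-specific and were sequenced as paired ends, and EV isolation was polymer-based. FPKM divides by gene length and library total, so a few abundant transcripts can move all other values. A whole gene length was found for which all 8 values became whole fragments (tolerance 2e-05) in 21406 of 21406 genes above 0 (100%); the smallest such length was taken. It equals an annotated transcript for 7749 tested genes (70.6%).

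IDs were matched to GENCODE vM21 (34490 with a symbol, 785 without). Genes averaging 1 FPKM or more were tested with limma 3.58.1 in R 4.3.3 on log2(FPKM + 0.5), 4 groups, 4 residual degrees of freedom, eBayes with a trend, two-sided, Benjamini-Hochberg adjustment, threshold 0.05. Alternatives were pseudocounts of 0.1 and 1, other filters (0.1, 5 and none), median-ratio and quantile scaling, no trend, a replicate block, an additive fit, 1 time alone and each library left out; voom on fragments was chosen after seeing the data, and called 3082 genes over time, 1987 at 12 h and 362 at 24 h. Steps were tested on simulated data. Tables and figures used Python 3.11.15 (scipy 1.17.1, pandas 2.3.3, numpy 2.4.6).

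The members, the 5 gene lists and the 5 marker lists were chosen with earlier results of these data known. All members are named; other list genes are among those with the smallest p (up to 6 at 12 h, 3 at 24 h), and the profile neighbours are the nearest 5. Some counts per list include genes that are not named, and 1 result under this rule is not reported here.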

Additional observations from a re-analysis of the deposited data

Results flagged for a closer look

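For 3 members every MPC EV library lay below the controls at 12 h and above them at 24 h. Of the 10981 tested genes, 6.79% did the same. Cxcl1 is not among those genes because its mean was below the filter. MPC EV minus control at 24 h exceeded that at 12 h by 2.28 for Ccl2, by 1.72 for Cxcl1 and by 0.52 for Csf1 in log2(FPKM + 0.5). These differences were not tested, because the genes were chosen on them. Cxcl1 rests on 3 to 36 fragments per library.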

How the results depend on the processing

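Depth limits Cxcl1, Il6 and Cxcl5 most, with at most 36 fragments in a library. With 2 libraries per group, counts of called genes moved widely. At 12 h, 2045 genes were called for MPC EVs against control, beside 1217 with median-ratio scaling, 1253 with quantile normalization, 1114 with the replicate block, 11 in the libraries of 12 h alone and 212 to 5671 with 1 library left out. Of the 12 h calls 23.4% were higher, beside 54.5% with median-ratio scaling and 40.4% with quantile normalization; over time, 59.4% were higher, beside 48.3% with median-ratio scaling. At 24 h, 392 were called, beside 225 with no filter, 183 with the replicate block, 763 in the libraries of 24 h alone and 27 to 958 with 1 library left out. For the difference between the effects, 0 were called, beside 0 to 3668 with 1 library left out; 3668 came without control 12 h replicate 1, 3 without control 12 h replicate 2 and 1 without MPC EV 24 h replicate 2. Over time 3076 were called, beside 1692 to 4966 with 1 library left out. Of the members 2 were called over time, beside 1 with a filter at a mean of 5 FPKM, where Lif was not tested, 0 with the additive fit (Cx3cl1 adjusted p 0.0848, Lif 0.177, limma) and 0 to 2 with 1 library left out. Fits to 1 time or without a library hold fewer samples by construction; otherwise the cause was not tested. Deviations of same-numbered libraries correlated between groups at -0.0125 for MPC EV 12 h with control 12 h, 0.241 for MPC EV 24 h with control 24 h, -0.613 for control 12 h with MPC EV 24 h, -0.271 for control 12 h with control 24 h, and 0.0719 and 0.0581 for MPC EV 12 h with MPC EV 24 h and control 24 h, so the numbers were not taken to pair the samples. With the replicate block the members called stayed 2, while the receptors lower at 12 h were 2, STAT3 genes 1, other cytokines 1 and regulators lower at 24 h 2. Over all alternatives, values for single members stayed within their spread or on their side of the threshold 409 times, moved 21 times and lost a call 8 times. No called value changed sign, but uncalled ones did: MPC EV minus control at 12 h for Cxcl12 (0.04 with median-ratio scaling) and at 24 h for Lif (-0.14 without MPC EV 24 h replicate 1, -0.04 without control 24 h replicate 2), and the change over time for Ccl2 (0.04 without control 24 h replicate 2) and Ccl7 (-0.0036 with median-ratio scaling, -0.01 with quantile normalization, -0.13 without MPC EV 12 h replicate 1, -0.03 without control 24 h replicate 1).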

Other observations

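Il33, an alarmin of the interleukin 1 family, and Il11, a cytokine that signals through gp130, were higher with MPC EVs at both times. They are not members and were chosen after their values were seen. Il33 stood at 1.29 and 1.16 FPKM with MPC EVs and 0.420 and 0.238 FPKM in controls at 12 h, and at 1.73 and 1.62 against 0.339 and 0.175 FPKM at 24 h. Summed over the libraries of a group and set relative to depth, MPC EV over control was 3.75 at 12 h (95% counting interval 2.51 to 5.75) and 6.53 at 24 h (4.28 to 10.3). Il11 stood at 0.957 and 0.904 FPKM with MPC EVs and 0.464 and 0.159 FPKM in controls at 12 h, and at 2.32 and 1.45 against 0.481 and 0.313 FPKM at 24 h. The ratio was 3.03 at 12 h (1.65 to 5.88) and 4.71 at 24 h (2.86 to 8.11). All MPC EV libraries were above all controls for both genes at both times. Of the 10981 tested genes, 17.1% were separated upward at 12 h and 23.7% at 24 h. Because both genes were chosen after their values were seen, nothing is read from their separation. Neither reached the mean of 1 FPKM that a test required. Both genes rest on few fragments, 111 against 32 and 146 against 26 summed per group for Il33 at 12 h and 24 h.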
